A study of Oryza sativa Japonica Group with 36 samples.

Results

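The second leaf (SL) of the rice cultivar Dongjin, the leaf directly below the flag leaf (FL), was compared between 12 and 4 days after heading (DAH). The comparison took every library labelled as 2nd leaf at those time points, which is 6 of the 36 libraries of the series, with 3 at 12 DAH and 3 at 4 DAH. The plants were untreated and grown in a paddy field, and each library was made from the blade middles of several pooled leaves cut on the same morning. Replicates are therefore pools of leaves from the same field, and the sampling day, with its weather, and the age of the leaf cannot be told apart. The FL libraries of the same days (3 at 12 DAH and 3 at 4 DAH) were used only where the change in SL was set against that in FL.

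Heading is the emergence of the panicle, and the grain fills over the weeks that follow. During this time the upper leaves fix carbon for the grain and, as they age, take apart chloroplasts and export the nitrogen held in photosynthetic proteins as amino acids. Chlorophyll-binding antenna proteins, chlorophyll breakdown enzymes, cytosolic glutamine synthetase, and sugar and amino acid carriers are gene groups known for their part in this transition.

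Poly(A) RNA was sequenced, and the deposited values are the reads of each gene relative to library size (CPM), with library sizes scaled by the TMM method. The libraries held 24834135, 19403142 and 21835548 reads on genes in SL at 12 DAH, against 8817254, 10349066 and 25097907 reads at 4 DAH, so that 2 of the 3 libraries at 4 DAH were shallower than the rest. Over the 6 libraries the first principal component took 75.8% of the variance and placed the 3 libraries of each day on opposite sides. The second took 10.6% and was led by replicate 3 of 12 DAH. Among the genes that rose, replicate 3 was the 12 DAH library nearest to 4 DAH in 43.8% of cases, against 33.4% for replicate 1 and 22.8% for replicate 2. Among the genes that fell the shares were alike, at 34.4% for replicate 3, 35.3% for replicate 1 and 30.3% for replicate 2. The 9 mesophyll markers were detected in all 6 libraries, with a summed 12560 to 14710 CPM at 12 DAH and 15780 to 23440 CPM at 4 DAH. Of 8 pollen and anther markers, 4 were at 0 in all 6 libraries and the sum was 17.1 to 19.8 CPM at 12 DAH and 21.7 to 23.2 CPM at 4 DAH. The 12 grain storage markers summed to 38.5 to 42.2 CPM at 12 DAH and 43.6 to 50.5 CPM at 4 DAH, with 3 at 0 throughout, and the 2 root markers to 1.35 to 5.34 CPM at 12 DAH and 1.34 to 2.21 CPM at 4 DAH, with 1 at 0 throughout. The part of the marker levels in the results below was not tested.

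Of 22057 genes tested with limma on log2(CPM + 1), 7217 (32.7%) passed an adjusted p of 0.05 in SL. At 12 DAH, 3831 genes (17.4%) were higher than at 4 DAH and 3386 (15.4%) were lower, and these shares are the background against which every count below is to be read. The 3 values of each day did not overlap for 58.3% of the genes, the share to set beside each later mention of groups that do not overlap. The genes with the largest changes were named only where the days did not overlap, so for them it is no support. Changes of at least 2-fold were found for 640 genes that rose and 858 that fell, and changes of at least 4-fold for 67 and 97. The median log2 change of all genes was 0.03. A log2 change below is 12 minus 4 DAH on the log2(CPM + 1) scale, which understates the change of weakly expressed genes. Genes "rose" or "fell" only where they passed. CPM is not divided by gene length, so levels are compared within a gene and not between genes. Lists of nuclear genes hold genes found by name or description, which 2944 and 1636 of 38026 genes had. Their counts speak for the listed genes and not for whole families. In bulk leaf RNA, fewer cells of a type and less RNA per cell cannot be told apart.

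**Figure D1:**
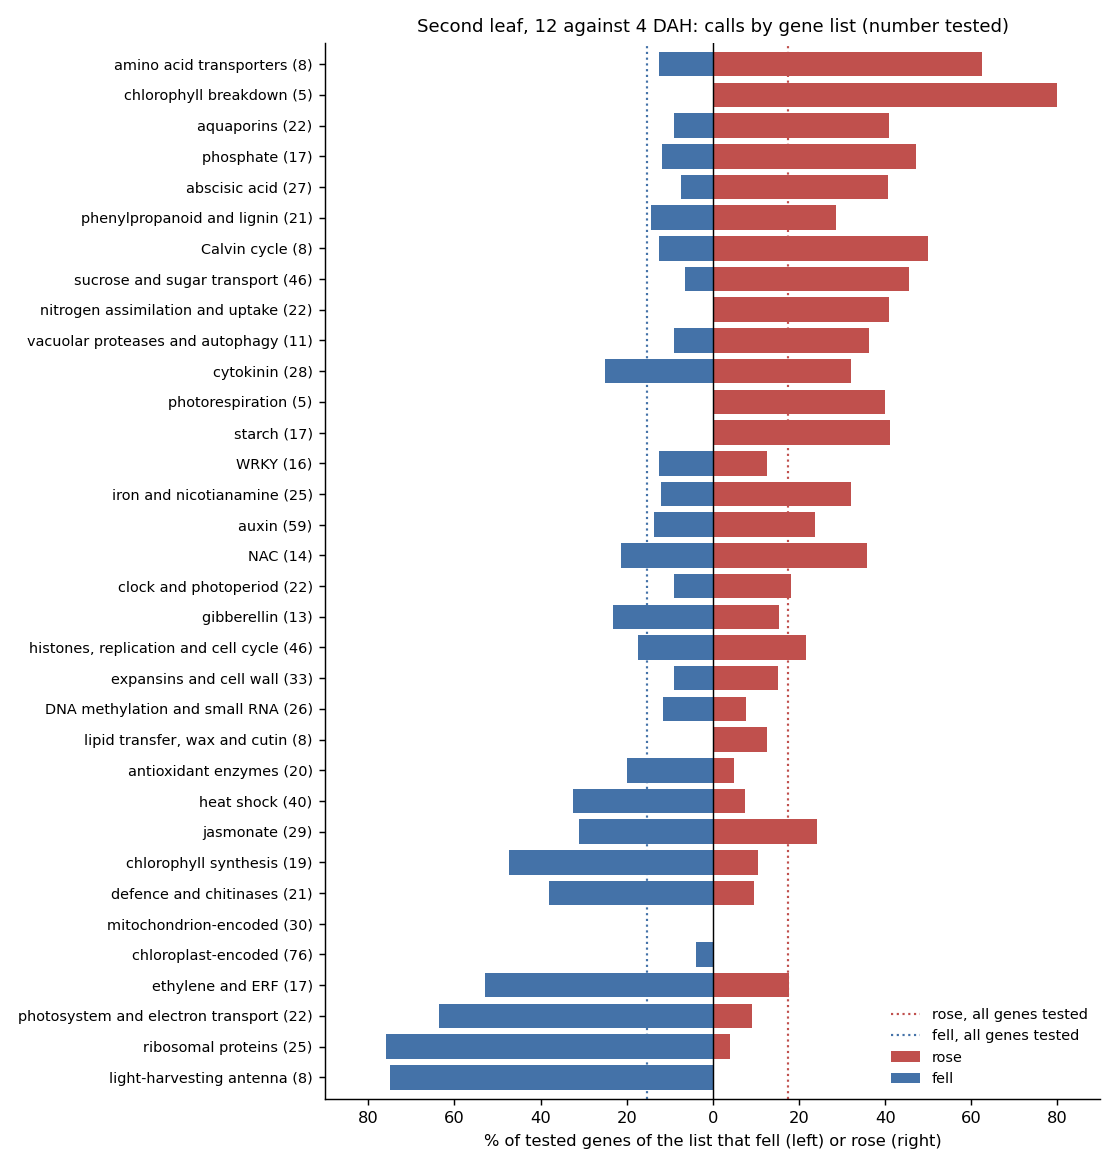
Percentage of the tested genes of each of 34 gene lists that rose (right of 0) or fell (left of 0) in SL between 4 and 12 DAH, with the number tested in brackets and lists ordered by their median log2 change. Dotted lines mark the shares over all 22057 genes (17.4% rose, 15.4% fell); the antenna and ribosomal protein lists extend farthest to the left and the chlorophyll breakdown list, which holds 5 genes, farthest to the right.

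The light-harvesting antenna genes, whose products bind chlorophyll and pass absorbed light to the photosystems, fell together. Of 8 tested, 6 fell and none rose (median log2 change -1.96, against 0.03 for all genes). 5 of the 8 were in the readable part of a list the study had chosen from these samples, so their direction is not independent evidence. The 3 outside that part also fell. Only 1636 genes of the list could be read, so genes outside that part may also have been chosen by the study. Below, the study's list, or its own list, means this readable part, and counts outside it are not shown to be independent. CAB2R (OS01G0600900) had 105, 101 and 141 CPM in SL at 12 DAH, against 1161, 893 and 905 CPM at 4 DAH. The 12 DAH libraries were lower by a wide margin (log2 change -3.06, SE 0.29, adjusted p = 3.83e-09). CAB1R (OS09G0346500) had 84.2, 107 and 218 CPM in SL at 12 DAH, against 829, 885 and 909 CPM at 4 DAH. Replicate 3 stood higher than the other 12 DAH libraries, still far below the 4 DAH values (log2 change -2.79, SE 0.47, adjusted p = 3.61e-05). RCABP69 (OS07G0558400) followed with 128, 115 and 172 CPM at 12 DAH, against 787, 807 and 794 CPM at 4 DAH, and RCABP89 (OS03G0592500) with 213, 227 and 387 CPM at 12 DAH, against 997, 1100.3 and 1086 CPM at 4 DAH. An antenna gene of photosystem I, OS08G0435900 (similar to LHC I type IV), had 258, 307 and 470.3 CPM at 12 DAH, against 1222, 1399 and 1253 CPM at 4 DAH. The groups did not overlap in any of these genes, with log2 changes of -2.53, -1.94 and -1.97. OS07G0577600 (similar to a type II chlorophyll a/b-binding protein) fell by less (log2 change -1.08, SE 0.23, adjusted p = 0.000533). OS02G0197600, described as a type III chlorophyll a/b-binding protein, had a log2 change of -0.35 (adjusted p = 0.0651). OS09G0296800, described only as a family member, had one of 0.06 (adjusted p = 0.848). RCABP89 and the family member were outside the rule for named genes and are given so that all 8 are accounted for. Near-identical copies exist in this family, and how the authors' counting divided their reads was not given in the sources used here.

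Among the nuclear genes of photosystem subunits and electron carriers, decreases also outnumbered increases. Of 22 tested, 14 fell and 2 rose (median -0.74). Among the 9 outside the study's own list 2 fell and 2 rose, so the direction of the list is not independent evidence. OEE3 (OS07G0544800), a subunit of the oxygen-evolving complex, had 339, 343 and 395 CPM at 12 DAH, against 928, 829.7 and 688 CPM at 4 DAH (log2 change -1.20, SE 0.19, adjusted p = 1.48e-05). OS03G0343900 (photosystem II PsbX) had 36.6, 29.1 and 48.6 CPM at 12 DAH, against 103, 92.6 and 93.4 CPM at 4 DAH, and OS07G0435300 (photosystem I subunit IV) had 230.1, 229.7 and 253 CPM at 12 DAH, against 456, 436 and 396 CPM at 4 DAH. Both were lower in every 12 DAH library (-1.42 and -0.9997). The 2 that rose both encode ferredoxin-NADP reductase, which passes electrons on to NADP. LFNR1 (OS06G0107700) had 756, 741 and 687 CPM in SL at 12 DAH, against 501, 532 and 467 CPM at 4 DAH (log2 change 0.46, SE 0.08, adjusted p = 7.94e-05). FNR (OS03G0784700, 22.1 ± 1.63 CPM at 12 DAH and 15.3 ± 1.18 CPM at 4 DAH, log2 change 0.56) changed alike (SD, n = 3 each). With 1 library left out, 10 to 14 of the 22 fell.

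Chlorophyll synthesis genes fell more often than rose, with 9 of 19 falling and 2 rising (median -0.33). Of the 15 outside the study's list, 5 fell and 2 rose. PORB (OS10G0496900), which encodes the light-dependent protochlorophyllide oxidoreductase, had 19.1, 18.4 and 18.5 CPM at 12 DAH, against 90.7, 83.6 and 106 CPM at 4 DAH. The 3 libraries at 12 DAH lay within 1 CPM of each other and far below those of 4 DAH (log2 change -2.34, SE 0.24, adjusted p = 2.32e-08). PORA (OS04G0678700), its paralogue, was weakly expressed at 0.367, 0.374 and 1.02 CPM at 12 DAH, against 4.19, 2.40 and 3.68 CPM at 4 DAH (log2 change -1.35, SE 0.17, adjusted p = 7.57e-07). GSA (OS08G0532200), the aminotransferase that makes the tetrapyrrole precursor aminolevulinate, had 77.1, 73.5 and 57.5 CPM at 12 DAH, against 132, 137 and 141 CPM at 4 DAH (log2 change -1.07, SE 0.14, adjusted p = 5.72e-07). CHLP (OS02G0744900), which reduces the geranylgeranyl tail of chlorophyll, had 359, 325 and 409 CPM at 12 DAH, against 669.9, 639 and 641 CPM at 4 DAH (log2 change -0.93, SE 0.15, adjusted p = 2.46e-05). None of these 4 genes overlapped between the days. The 2 exceptions were CHLG and PPOX1. CHLG (OS05G0349700), chlorophyll synthase, had 153, 152 and 139.8 CPM at 12 DAH, against 65.6, 71.0 and 66.8 CPM at 4 DAH (log2 change 1.05, SE 0.12, adjusted p = 1.38e-07). PPOX1 (OS01G0286600), protoporphyrinogen oxidase, had 47.0, 38.5 and 36.1 CPM at 12 DAH, against 23.2, 26.6 and 23.7 CPM at 4 DAH (log2 change 0.71, SE 0.17, adjusted p = 0.00208). CHLG attaches the tail to chlorophyllide and thus acts at the opposite end of the route from GSA.

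Chlorophyll breakdown genes rose, 4 of 5 tested (median 0.61), and none fell. SGR (OS09G0532000), the stay-green gene, whose product removes magnesium from chlorophyll a, had 39.9, 50.6 and 62.8 CPM in SL at 12 DAH, against 13.6, 19.4 and 20.7 CPM at 4 DAH. Every 12 DAH library was higher (log2 change 1.51, SE 0.21, adjusted p = 2.69e-06). NYC1 (OS01G0227100), a chlorophyll b reductase, had 134, 132 and 127 CPM at 12 DAH, against 75.0, 81.5 and 85.7 CPM at 4 DAH (log2 change 0.61, SE 0.08, adjusted p = 1.31e-06). NOL (OS03G0654600), its partner, and RCCR1 (OS10G0389200), the red chlorophyll catabolite reductase, both had a log2 change of 0.60, with adjusted p = 0.0308 and 0.0384. These last calls depended on single libraries and on the settings. NOL passed only where replicate 3 of 12 DAH was the library left out, with an adjusted p up to 0.124 otherwise (without replicate 2 of 12 DAH). RCCR1 passed only without replicate 1 of 12 DAH or replicate 3 of 4 DAH, with an adjusted p up to 0.195 otherwise (without replicate 2 of 4 DAH). NOL also missed without quantile normalization, with edgeR and with SL libraries only (adjusted p = 0.0509, 0.0553 and 0.104). RCCR1 also missed with a pseudocount of 5, without the filter on low values and with SL libraries only (adjusted p = 0.0502, 0.061 and 0.126). With 1 library left out, 2 or 3 of the 5 passed, and 2 without replicate 2 of 12 DAH, replicate 1 of 4 DAH or replicate 2 of 4 DAH.

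**Figure D2:**
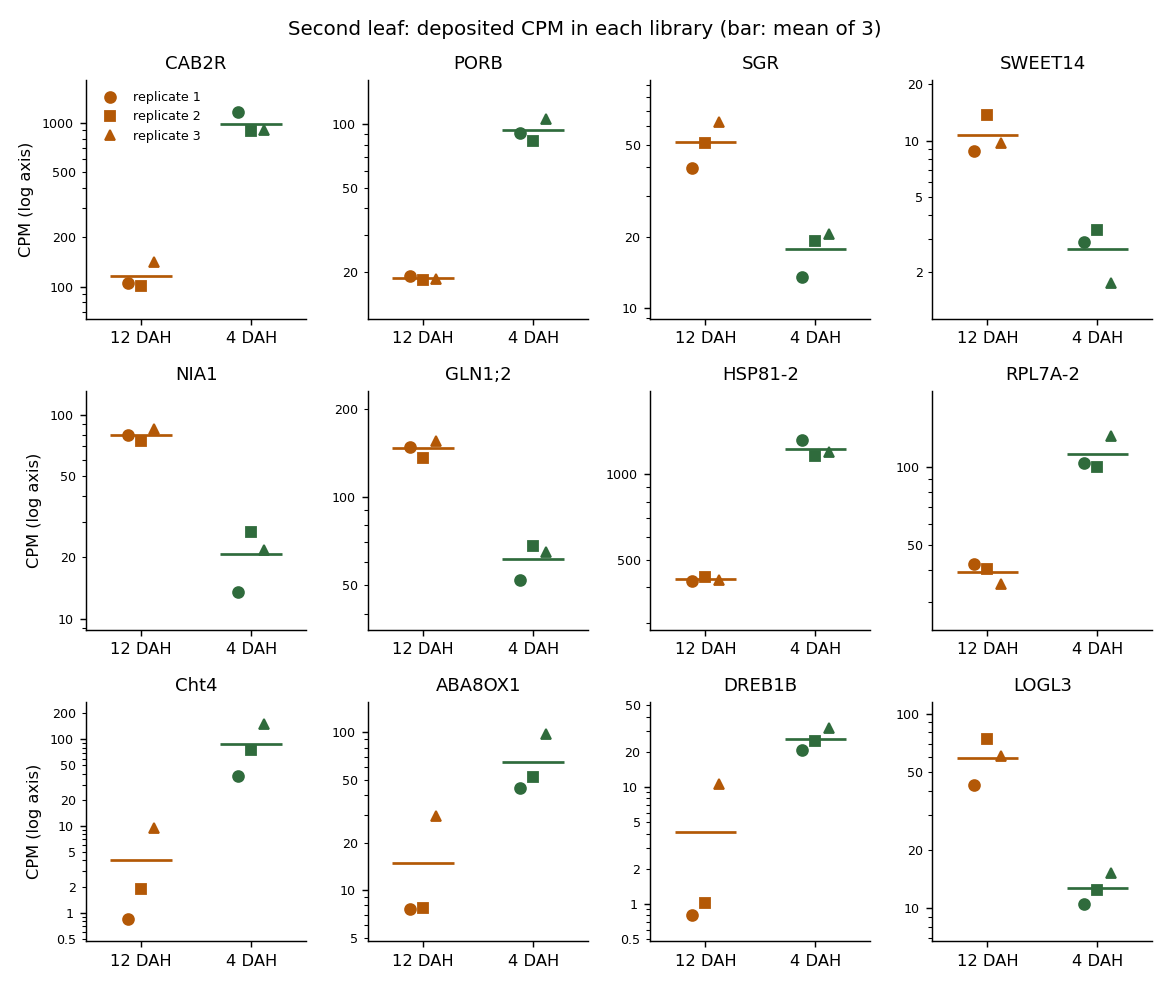
Deposited CPM (log axis) of 12 genes in each of the 6 SL libraries, with 12 DAH at the left and 4 DAH at the right of each panel, symbols for the replicates and a bar at the mean of 3. The groups do not overlap in any panel, as for 58.3% of all genes tested, and for some panels this was a condition of choice. In the panels of Cht4, ABA8OX1 and DREB1B replicate 3 of 12 DAH (9.41, 29.3 and 10.6 CPM) stands above the other 12 DAH libraries.

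In the list of the Calvin cycle, which fixes carbon with the products of the light reactions, 4 of 8 genes rose and 1 fell, or 2 and 1 of the 6 outside the study's list. TK (OS03G0113100), counted among the 4 and the 8, is described as similar to thymidine kinase, which is not an enzyme of this cycle. FBPase (OS03G0267300), the chloroplast fructose-bisphosphatase that regenerates the carbon acceptor, had 778, 766 and 800.3 CPM in SL at 12 DAH, against 574, 558 and 512 CPM at 4 DAH (log2 change 0.47, SE 0.10, adjusted p = 0.000409). OS10G0442100, similar to phosphoglycerate kinase, showed the largest change of the list at 25.5, 23.96 and 25.6 CPM at 12 DAH, against 9.49, 7.29 and 7.56 CPM at 4 DAH (log2 change 1.60, SE 0.17, adjusted p = 2.76e-08). RBCS1 (OS12G0291100), a Rubisco small subunit gene, fell slightly, with 1504, 1529 and 1517 CPM at 12 DAH, against 2392, 1962 and 1545 CPM at 4 DAH (log2 change -0.38, SE 0.13, adjusted p = 0.0218). This call was weak. It was lost without replicate 1 of 4 DAH (-0.23, adjusted p = 0.204) and without replicate 2 of 12 DAH (-0.35, adjusted p = 0.0755). It was also lost without quantile normalization, with edgeR and with DESeq2 (adjusted p = 0.193, 0.144 and 0.122), and with SL libraries only, without the filter on low values and with thinned reads (adjusted p = 0.0824, 0.0597 and 0.0581). Another small subunit gene, RBCS-C (OS12G0274700), went the other way, with 889.6, 964 and 1064 CPM at 12 DAH, against 772.1, 884.1 and 664.8 CPM at 4 DAH. The values of Rubisco activase, rca (OS11G0707000), were 8608, 10651 and 10096 CPM at 12 DAH, against 15350.0, 14100.0 and 8809 CPM at 4 DAH, and the ranges overlapped. It held the top rank in these libraries, so quantile normalization fixed its log2 change at 0 and no test of it is given. Photorespiration had 2 of 5 genes that rose and none that fell, and 0 or 1 rose with any 1 of the 6 libraries left out.

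No starch gene fell, and 7 of 17 rose (median 0.18), with 5 of the 12 outside the study's list. The debranching enzyme ISA1 (OS08G0520900) had 32.1, 31.5 and 25.7 CPM at 12 DAH, against 9.37, 10.7 and 10.9 CPM at 4 DAH (log2 change 1.51, SE 0.21, adjusted p = 2.89e-06). DPE1 (OS07G0627000), the disproportionating enzyme that acts on glucans during starch turnover, had 13.2, 17.93 and 11.3 CPM in SL at 12 DAH, against 5.07, 4.03 and 7.13 CPM at 4 DAH (log2 change 1.32, SE 0.20, adjusted p = 7.57e-06). SS1 (OS06G0160700), starch synthase I, had 112, 153 and 73.4 CPM at 12 DAH, against 37.4, 42.4 and 51.4 CPM at 4 DAH, with a wide spread at 12 DAH (log2 change 1.26, SE 0.30, adjusted p = 0.00167). With 1 library left out, 5 to 7 of the 17 rose.

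In the list of sucrose metabolism and sugar transport, 21 of 46 genes rose and 3 fell (45.7% and 6.52%, median 0.25). SWEET proteins are uniporters that let sugars leave cells, and SWEET14 had the largest increase of the list. SWEET14 (OS11G0508600) had 8.84, 13.7 and 9.74 CPM in SL at 12 DAH, against 2.87, 3.36 and 1.74 CPM at 4 DAH. All 3 values at 12 DAH exceeded those at 4 DAH (log2 change 1.74, SE 0.21, adjusted p = 2.79e-07). SWEET1A (OS01G0881300) had 101, 107 and 114 CPM at 12 DAH, against 40.7, 48.3 and 46.1 CPM at 4 DAH (log2 change 1.19, SE 0.16, adjusted p = 1.54e-06). SWEET2B (OS01G0700100) had 620.1, 632 and 632 CPM at 12 DAH, against 371, 344.7 and 298 CPM at 4 DAH (log2 change 0.77, SE 0.13, adjusted p = 4.59e-05). SWEET6A (OS01G0605700, 3.69 ± 0.584 CPM at 12 DAH and 1.42 ± 0.466 CPM at 4 DAH, log2 change 1.01) was weakly expressed and rose (SD, n = 3 each). Among the 3 that fell were the hexokinase genes HXK3 (OS01G0940100, 20.1 ± 1.92 CPM at 12 DAH and 28.7 ± 1.146 CPM at 4 DAH, log2 change -0.50) and HXK5 (OS01G0722700, 1.79 ± 0.0411 CPM at 12 DAH and 4.23 ± 0.132 CPM at 4 DAH, log2 change -0.80) (SD, n = 3 each). With 1 library left out, 18 or 19 of the 46 rose.

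Nitrogen assimilation and uptake genes rose in 9 of 22 cases and fell in none (median 0.22). NIA1 (OS08G0468100), which encodes nitrate reductase, had 79.4, 74.2 and 85.5 CPM at 12 DAH, against 13.6, 26.7 and 21.9 CPM at 4 DAH. This was a 3.91-fold change on the log2(CPM + 1) scale (log2 change 1.97, SE 0.18, adjusted p = 3.38e-09). GLN1;2 (OS03G0223400), a cytosolic glutamine synthetase, had 148, 136 and 156 CPM in SL at 12 DAH, against 52.1, 68.0 and 64.8 CPM at 4 DAH (log2 change 1.18, SE 0.15, adjusted p = 3.96e-07). GDH1 (OS03G0794500), glutamate dehydrogenase, had 15.8, 18.996 and 19.6 CPM at 12 DAH, against 7.83, 7.48 and 8.49 CPM at 4 DAH (log2 change 1.17, SE 0.16, adjusted p = 1.85e-06). The ammonium transporter gene AMT3;1 (OS01G0870300) had 26.8, 24.8 and 26.1 CPM at 12 DAH, against 10.8, 15.6 and 10.7 CPM at 4 DAH (log2 change 1.09, SE 0.15, adjusted p = 1.78e-06). The groups did not overlap in any of these genes. The chloroplast enzymes that fix photorespiratory ammonium did not pass: GLN2 (OS04G0659100) had a log2 change of 0.23 (adjusted p = 0.0505). Fd-GOGAT (OS07G0658400) had one of 0.36 (adjusted p = 0.199), though its deposited values did not overlap. They were 4183, 4471 and 3892 CPM at 12 DAH, against 3065, 3109 and 2358 CPM at 4 DAH. After quantile normalization this change was smaller, at 1.28-fold.

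Of the 8 amino acid transporter genes listed, 5 rose and 1 fell, though 7 of the 8 came from the study's own list, so their direction is not independent evidence. OS01G0878700 (amino acid transporter, transmembrane domain) had 6.72, 7.90 and 9.69 CPM at 12 DAH, against 1.21, 1.92 and 1.86 CPM at 4 DAH (log2 change 1.82, SE 0.21, adjusted p = 1.01e-07). OS01G0945600 (similar to an amino acid permease) had 18.8, 21.4 and 25.1 CPM at 12 DAH, against 7.94, 6.81 and 8.80 CPM at 4 DAH (log2 change 1.43, SE 0.17, adjusted p = 1.86e-07). OS04G0460300 (amino acid transporter, transmembrane domain) was below 1 CPM at 4 DAH, with 2.36, 5.82 and 3.11 CPM at 12 DAH, against 0.110, 0.671 and 0.194 CPM at 4 DAH (log2 change 1.804, SE 0.34, adjusted p = 0.000152). The gene that fell, OS07G0134000 (similar to an amino acid permease), had 90.01, 94.2 and 99.0 CPM at 12 DAH, against 213, 208 and 173 CPM at 4 DAH (log2 change -1.18, SE 0.18, adjusted p = 6.27e-06).

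Phosphate genes rose in 8 of 17 cases and fell in 2 (median 0.33). PHO1;3 (OS06G0493600), of the family that loads phosphate into the xylem, had 104, 108 and 111 CPM at 12 DAH, against 27.6, 41.4 and 28.2 CPM at 4 DAH (log2 change 1.71, SE 0.22, adjusted p = 4.86e-07). PHO1;2 (OS02G0809800) had 16.9, 36.5 and 25.2 CPM at 12 DAH, against 8.82, 11.6 and 12.9 CPM at 4 DAH (log2 change 1.18, SE 0.22, adjusted p = 9.58e-05). The uptake transporter gene PHT1;1 (OS03G0150600) had 64.2, 38.4 and 70.3 CPM at 12 DAH, against 169, 185 and 196 CPM at 4 DAH (log2 change -1.81, SE 0.21, adjusted p = 9.91e-08). PHT1;8 (OS10G0444700) had 85.5, 81.6 and 122 CPM at 12 DAH, against 196, 185 and 217 CPM at 4 DAH (log2 change -1.19, SE 0.16, adjusted p = 1.54e-06). Both were lower in every 12 DAH library. PHT1;2 (OS03G0150800), a further member of that family, was weakly expressed and rose, with 2.24, 2.40 and 2.13 CPM at 12 DAH, against 0.441, 0.671 and 0.969 CPM at 4 DAH (log2 change 0.99, SE 0.14, adjusted p = 2.55e-06).

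Iron genes rose in 8 of 25 cases and fell in 3, or 5 and 2 of the 19 outside the study's list, and with 1 library left out 5 to 7 rose (5 without replicate 3 of 4 DAH). NAS3 (OS07G0689600), a nicotianamine synthase that makes the iron chelator of the phloem, had 9.86, 13.1 and 16.3 CPM in SL at 12 DAH, against 1.32, 2.49 and 4.15 CPM at 4 DAH (log2 change 2.05, SE 0.29, adjusted p = 3.07e-06). The ferritin genes, whose products store iron in the chloroplast, both rose: OS12G0106000 had 212, 221 and 295 CPM at 12 DAH, against 92.6, 101 and 122.5 CPM at 4 DAH (log2 change 1.06, SE 0.19, adjusted p = 6.29e-05). OS11G0106700 had 199, 208 and 283 CPM at 12 DAH, against 127, 128 and 145 CPM at 4 DAH (log2 change 0.64, SE 0.16, adjusted p = 0.00295). The pair is near-identical and reads may have been divided between its members. IRT1 (OS03G0667500), an iron uptake transporter, was low and fell, with 0.570, 0.320 and 0.556 CPM at 12 DAH, against 2.095, 2.88 and 2.33 CPM at 4 DAH (log2 change -1.09, SE 0.18, adjusted p = 2.16e-05).

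Aquaporin genes rose in 9 of 22 cases and fell in 2 (median 0.37), or 6 and 2 of the 17 outside the study's list, and 6 to 8 rose with 1 library left out. Lsi1 (OS02G0745100), the silicon channel, had 27.2, 30.9 and 31.6 CPM at 12 DAH, against 7.28, 9.59 and 8.14 CPM at 4 DAH (log2 change 1.81, SE 0.14, adjusted p = 2.51e-10). PIP1;3 (OS02G0823100), of the plasma membrane class, had 162, 181 and 187 CPM at 12 DAH, against 58.7, 59.5 and 67.6 CPM at 4 DAH (log2 change 1.42, SE 0.17, adjusted p = 2.95e-07). TIP1;2 (OS01G0975900), of the tonoplast class, had 17.8, 18.9 and 25.3 CPM at 12 DAH, against 5.85, 5.28 and 7.21 CPM at 4 DAH (log2 change 1.67, SE 0.25, adjusted p = 7.09e-06). The sodium transporter genes HKT1;1 (OS04G0607500) and HKT2;1 (OS06G0701700) were among the named genes with the largest increases. HKT1;1 had 25.3, 37.4 and 37.9 CPM at 12 DAH, against 2.76, 7.77 and 6.98 CPM at 4 DAH (log2 change 2.48, SE 0.30, adjusted p = 2.95e-07), and HKT2;1 had 5.66, 7.90 and 11.5 CPM at 12 DAH, against 0.331, 1.25 and 1.12 CPM at 4 DAH (log2 change 2.34, SE 0.33, adjusted p = 3.42e-06).

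The listed ribosomal protein genes, whose products build the ribosome, mostly fell. Of 25 tested, 19 fell and 1 rose (76.0% and 4.00%, against 15.4% and 17.4% of all genes), with a median log2 change of -1.01. None of them was in the readable part of the study's own list, and 19 fell whichever of the 6 libraries was left out. RPL7A-2 (OS09G0507800) had 42.3, 40.4 and 35.2 CPM in SL at 12 DAH, against 103, 100.3 and 132 CPM at 4 DAH. In this gene the highest 12 DAH value was below the lowest 4 DAH value by a wide margin (log2 change -1.57, SE 0.16, adjusted p = 1.16e-08). RPL11 (OS05G0207300) had 19.5, 17.6 and 18.5 CPM at 12 DAH, against 44.2, 42.2 and 58.9 CPM at 4 DAH (log2 change -1.37, SE 0.18, adjusted p = 8.17e-07). RPL9 (OS09G0485900) and RPS26 (OS01G0823300) fell by 1.01 and 1.27 on the log2 scale. The gene that rose, RPL27 (OS01G0924000), had 225, 224 and 225 CPM at 12 DAH, against 128, 136 and 136 CPM at 4 DAH (log2 change 0.62, SE 0.16, adjusted p = 0.00405).

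Heat shock proteins are chaperones and their regulators. In this list 13 of 40 fell and 3 rose (32.5% and 7.50%, median -0.12). Of the 29 outside the study's own list 5 fell and 1 rose, a share of falls near the 15.4% of all genes. The direction of the list is therefore not independent evidence. HSP81-2 (OS09G0482100), an HSP90 gene, had 421, 437 and 424 CPM in SL at 12 DAH, against 1319, 1160.2 and 1193 CPM at 4 DAH. The values of each day were tightly grouped (log2 change -1.50, SE 0.14, adjusted p = 2.79e-09). OS03G0113700, similar to a mitochondrial heat shock 70 kDa protein, had 13.03, 13.4 and 14.6 CPM at 12 DAH, against 36.5, 36.6 and 46.1 CPM at 4 DAH (log2 change -1.49, SE 0.19, adjusted p = 8.67e-07). HSP17.9A (OS03G0266300), a small heat shock protein gene, had 0.611, 0.587 and 1.02 CPM at 12 DAH, against 3.86, 3.74 and 5.54 CPM at 4 DAH (log2 change -1.48, SE 0.16, adjusted p = 6.27e-08). Both were lower in every 12 DAH library. Among those that rose was HSP22.3 (OS05G0500500), with 1.87, 2.13 and 2.23 CPM at 12 DAH, against 0.882, 0.671 and 0.969 CPM at 4 DAH (log2 change 0.79, SE 0.19, adjusted p = 0.00235).

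In the list of histones, replication and cell cycle, 10 of 46 rose and 8 fell (21.7% and 17.4%), shares near the 17.4% and 15.4% of all genes. With 1 library left out 6 to 9 rose (6 without replicate 1 of 12 DAH). The replicative helicase subunit gene MCM2 (OS11G0484300) had 10.8, 10.9 and 9.23 CPM at 12 DAH, against 30.8, 39.3 and 32.7 CPM at 4 DAH (log2 change -1.65, SE 0.21, adjusted p = 4.83e-07). PCNA (OS02G0805200), the sliding clamp, had 8.15, 6.78 and 7.05 CPM at 12 DAH, against 18.4, 15.6 and 20.3 CPM at 4 DAH (log2 change -1.147, SE 0.15, adjusted p = 5.84e-07). Against these, the clamp loader gene RFC4 (OS04G0569000) had 11.3, 10.6 and 9.74 CPM at 12 DAH, against 4.74, 4.12 and 4.11 CPM at 4 DAH (log2 change 1.19, SE 0.17, adjusted p = 5.01e-06) and the chromatin assembly gene FAS2 (OS08G0108200) had 22.03, 19.6 and 18.7 CPM at 12 DAH, against 8.38, 11.99 and 9.77 CPM at 4 DAH (log2 change 1.02, SE 0.11, adjusted p = 4.39e-08).

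Of 20 antioxidant enzyme genes, 1 rose and 4 fell (25% called, against 32.7% of all genes). Of the 18 outside the study's list, 1 rose and 2 fell. CAT-A (OS02G0115700), a catalase gene, had 59.6, 96.9 and 127 CPM in SL at 12 DAH, against 418, 406 and 411 CPM at 4 DAH. Its 12 DAH values were scattered but all below the 4 DAH values (log2 change -2.29, SE 0.32, adjusted p = 2.76e-06). APX2 (OS07G0694700), a cytosolic ascorbate peroxidase, had 56.2, 60.7 and 65.8 CPM at 12 DAH, against 129, 131 and 146 CPM at 4 DAH (log2 change -1.22, SE 0.17, adjusted p = 2.02e-06).

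Ethylene and ERF genes fell in 9 of 17 cases and rose in 3 (52.9% and 17.6%, median -0.63). The count was sensitive to single libraries, with 4 to 9 falling when 1 was left out and 4 without replicate 3 of 4 DAH. ACS5 (OS01G0192900), which encodes an ACC synthase of ethylene synthesis, had no read in any SL library at 12 DAH, against 7.39, 9.88 and 10.1 CPM at 4 DAH. Set against 3 reads in the library with the highest floor (0.160 CPM), the 12 DAH level was at least 57.0-fold lower than the 4 DAH mean. The gene reached the filter on low values only through the 3 SL libraries of 4 DAH. Its adjusted p by limma (9.94e-15) is therefore no independent support for the decrease. The cold-responsive regulators of the DREB1 group were also lower. DREB1B (OS09G0522000) had 0.815, 1.01 and 10.6 CPM in SL at 12 DAH, against 20.7, 24.9 and 31.7 CPM at 4 DAH. Replicate 3 of 12 DAH stood well above its group, but below every 4 DAH library (log2 change -2.85, SE 0.59, adjusted p = 0.00043), and without it the log2 change was -3.68. DREB1A (OS09G0522200) had 0.163, 0.213 and 1.16 CPM at 12 DAH, against 2.32, 2.11 and 5.93 CPM at 4 DAH (log2 change -1.39, SE 0.41, adjusted p = 0.00917), and without replicate 3 of 4 DAH it had a log2 change of -1.06 (adjusted p = 0.0756). EREBP1 (OS02G0782700) rose by a small amount, with 115, 109.7 and 108 CPM at 12 DAH, against 81.9, 74.6 and 89.5 CPM at 4 DAH (log2 change 0.35, SE 0.09, adjusted p = 0.00434). The other genes of the list that rose were ACO1 (OS09G0451400, log2 change 0.68, SE 0.19, adjusted p = 0.00577) and ERS2 (OS05G0155200, log2 change 0.57, SE 0.18, adjusted p = 0.0139). The ranges of ACO1 overlapped.

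Abscisic acid genes rose in 11 of 27 cases and fell in 2 (40.7% and 7.41%, median 0.28), or 8 and 2 of the 23 outside the study's list. PP2C06 (OS01G0583100), a protein phosphatase of the class that restrains ABA signalling, had 74.9, 79.4 and 79.4 CPM in SL at 12 DAH, against 37.6, 36.3 and 41.4 CPM at 4 DAH (log2 change 0.98, SE 0.10, adjusted p = 2.12e-08). SAPK9 (OS12G0586100) and SAPK1 (OS03G0390200), kinases that this phosphatase class acts on, rose by 0.72 and 0.50 on the log2 scale. The catabolic hydroxylases of ABA split: ABA8OX3 (OS09G0457100) had 27.6, 32.3 and 28.3 CPM at 12 DAH, against 16.5, 22.2 and 15.8 CPM at 4 DAH (log2 change 0.72, SE 0.16, adjusted p = 0.000681). ABA8OX1 (OS02G0703600) had 7.58, 7.74 and 29.3 CPM at 12 DAH, against 44.4, 52.4 and 97.8 CPM at 4 DAH (log2 change -2.29, SE 0.50, adjusted p = 0.000763). In ABA8OX1 both groups were uneven and replicate 3 was the highest of each, and without replicate 3 of 12 DAH the log2 change was -2.89.

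Jasmonate genes moved in both directions, 7 of 29 rising and 9 falling. The lipoxygenase genes, which start the route to jasmonate and related oxylipins, divided. LOX2 (OS03G0179900) had 84.8, 78.2 and 83.8 CPM at 12 DAH, against 23.1, 25.7 and 26.9 CPM at 4 DAH (log2 change 1.68, SE 0.23, adjusted p = 1.46e-06). LOX2.1 (OS08G0508800) had 15.8, 16.7 and 22.1 CPM at 12 DAH, against 93.9, 91.6 and 95.2 CPM at 4 DAH (log2 change -2.40, SE 0.31, adjusted p = 9.07e-07). LOX9 (OS08G0509100) had 122, 116 and 133 CPM at 12 DAH, against 254, 217 and 229.7 CPM at 4 DAH (log2 change -1.03, SE 0.20, adjusted p = 0.000212). None of the 3 overlapped between the days. Farther along the route, the allene oxide synthase gene AOS2 (OS03G0225900) had 3.54, 3.09 and 11.9 CPM at 12 DAH, against 12.2, 14.7 and 20.9 CPM at 4 DAH (log2 change -1.34, SE 0.36, adjusted p = 0.00457). OPR1 (OS06G0216300), an oxophytodienoate reductase, had 6.64, 8.70 and 11.9 CPM at 12 DAH, against 2.095, 3.07 and 3.64 CPM at 4 DAH (log2 change 1.41, SE 0.30, adjusted p = 0.000449). JAZ10 (OS03G0181100), a repressor that is itself induced by jasmonate, had 6.39, 5.71 and 12.5 CPM at 12 DAH, against 14.9, 21.2 and 28.9 CPM at 4 DAH (log2 change -1.28, SE 0.35, adjusted p = 0.00597).

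Cytokinin genes likewise divided, 9 of 28 rising and 7 falling (6 to 10 and 4 to 7 with 1 library left out, with 4 falling without replicate 1 of 4 DAH). LOGL3 (OS03G0109300), of the LOG family that releases active cytokinin, had 43.2, 74.3 and 60.6 CPM in SL at 12 DAH, against 10.5, 12.4 and 15.2 CPM at 4 DAH (log2 change 2.18, SE 0.22, adjusted p = 1.03e-08). The genes of cytokinin oxidases, which break the hormone down, also rose: CKX11 (OS08G0460600) had 102, 121 and 124 CPM at 12 DAH, against 61.3, 57.5 and 60.3 CPM at 4 DAH (log2 change 0.88, SE 0.20, adjusted p = 0.00135). CKX9 (OS05G0374200) had 9.73, 6.88 and 6.49 CPM at 12 DAH, against 3.31, 3.45 and 3.06 CPM at 4 DAH (log2 change 1.08, SE 0.22, adjusted p = 0.000284). Each of these 3 genes was higher in every 12 DAH library. RR6 (OS04G0673300), a type-A response regulator whose transcript is induced by cytokinin, had 6.801, 4.16 and 6.03 CPM at 12 DAH, against 24.2, 22.2 and 24.4 CPM at 4 DAH (log2 change -1.88, SE 0.31, adjusted p = 2.21e-05).

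In gibberellin synthesis, CPS1 (OS02G0278700, 1.41 ± 0.383 CPM at 12 DAH and 4.26 ± 0.488 CPM at 4 DAH, log2 change -1.02), KAO (OS06G0110000, 9.54 ± 3.00 CPM at 12 DAH and 19.7 ± 3.58 CPM at 4 DAH, log2 change -0.96) and GA20OX3 (OS07G0169600, 8.02 ± 0.682 CPM at 12 DAH and 15.1 ± 2.09 CPM at 4 DAH, log2 change -0.77) fell (SD, n = 3 each), and these are the 3 of 13 listed genes that fell, against 2 that rose. The gibberellin shares were 15.4% rising and 23.1% falling, against 17.4% and 15.4% of all genes. Auxin genes rose in 14 of 59 cases and fell in 8 (23.7% and 13.6%, against the same 17.4% and 15.4%). With 1 library left out, 9 to 12 of them rose (9 without replicate 2 of 12 DAH or replicate 1 of 4 DAH). The auxin transporter gene PIN5A (OS01G0919800) had 118, 109 and 129.9 CPM at 12 DAH, against 49.4, 55.6 and 51.9 CPM at 4 DAH (log2 change 1.11, SE 0.12, adjusted p = 2.74e-08), and the repressor gene IAA10 (OS02G0817600) had 119, 114 and 101 CPM at 12 DAH, against 189, 163 and 179 CPM at 4 DAH (log2 change -0.79, SE 0.15, adjusted p = 0.000203).

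Among the listed transcription factors of the NAC family, 5 of 14 rose and 3 fell, with 3 rising without replicate 1 of 4 DAH. Outside the study's list 1 of 9 rose and 3 fell, so 4 of the 5 that rose were chosen by the study from these samples and are not independent evidence of a direction. NAC067 (OS07G0225300) had 5.17, 4.54 and 15.9 CPM in SL at 12 DAH, against 24.3, 23.1 and 35.5 CPM at 4 DAH. Replicate 3 was again the highest of the 12 DAH libraries (log2 change -1.73, SE 0.41, adjusted p = 0.00157). NAC010 (OS07G0566500) had 7.13, 6.78 and 6.63 CPM at 12 DAH, against 3.64, 2.01 and 4.999 CPM at 4 DAH (log2 change 0.92, SE 0.21, adjusted p = 0.00133). OS10G0571600 (NAM domain) had 1.38, 2.88 and 1.25 CPM at 12 DAH, against 0.331, 0.288 and 0.388 CPM at 4 DAH (log2 change 1.08, SE 0.22, adjusted p = 0.000345). In the WRKY list, a part of that family, 2 of 16 rose and 2 fell (25% called, against 32.7% of all genes). Of the 16, 10 came from the study's own list, including both that rose. WRKY71 (OS02G0181300) had 15.4, 15.7 and 29.96 CPM at 12 DAH, against 57.7, 63.4 and 91.3 CPM at 4 DAH (log2 change -1.86, SE 0.32, adjusted p = 5.26e-05). WRKY24 (OS01G0826400) had 23.6, 16.2 and 34.4 CPM at 12 DAH, against 55.7, 59.5 and 81.9 CPM at 4 DAH (log2 change -1.48, SE 0.29, adjusted p = 0.000225). OS11G0116900 and OS12G0116400, a pair of near-identical WRKY genes, rose by 0.98 and 0.69 on the log2 scale.

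Defence genes fell in 8 of 21 cases and rose in 2 (median -0.34), and 5 or 6 fell with 1 library left out (5 without replicate 1 of 12 DAH or replicate 3 of 4 DAH). None rose without replicate 2 or 3 of 12 DAH or replicate 1 or 2 of 4 DAH. Chitinase genes, whose products cut fungal cell walls, went both ways. The 2 genes that rose were Cht1 (OS06G0726200, log2 change 0.92, adjusted p = 0.0332) and Cht3 (OS06G0726100, log2 change 0.71, adjusted p = 0.0435). The chitinase gene Cht4 had the largest decrease of all named genes on the log2(CPM + 1) scale. Cht4 (OS04G0493400) had 0.855, 1.87 and 9.41 CPM in SL at 12 DAH, against 37.3, 76.0 and 149 CPM at 4 DAH. The values were spread widely within each day (log2 change -4.33, SE 0.47, adjusted p = 4.6e-08). The days did not overlap, which was a condition for naming this gene. Without replicate 3 of 12 DAH the log2 change was -5.03. Cht5 (OS04G0494100), another chitinase gene, had 1.18, 3.09 and 5.24 CPM at 12 DAH, against 24.6, 43.8 and 83.2 CPM at 4 DAH (log2 change -3.59, SE 0.41, adjusted p = 1.03e-07). In both genes replicate 3 was the highest of each day and replicate 1 the lowest. Cht11 (OS03G0132900) had 58.6, 40.7 and 51.7 CPM at 12 DAH, against 83.3, 105 and 103 CPM at 4 DAH (log2 change -1.02, SE 0.20, adjusted p = 0.00017).

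Of the clock and photoperiod genes 4 of 22 rose and 2 fell (27.3% called, against 32.7% of all genes). Among those that rose, Hd3a (OS06G0157700), whose product carries the flowering signal from leaf to apex, had 25.01, 25.99 and 24.6 CPM at 12 DAH, against 7.50, 11.1 and 10.1 CPM at 4 DAH (log2 change 1.404, SE 0.16, adjusted p = 1.41e-07). GI (OS01G0182600), a clock-controlled regulator upstream of Hd3a, had 31.3, 35.1 and 39.2 CPM at 12 DAH, against 10.04, 16.8 and 13.6 CPM at 4 DAH (log2 change 1.41, SE 0.15, adjusted p = 4.08e-08). Both were higher in every 12 DAH library. CRYD (OS06G0661800), of the cryptochrome family, had 89.6, 84.8 and 79.4 CPM at 12 DAH, against 19.1, 33.4 and 26.7 CPM at 4 DAH (log2 change 1.69, SE 0.14, adjusted p = 6.86e-10).

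Several of the named genes with the largest changes belonged to none of these lists. INO1 (OS03G0192700), which makes inositol phosphate from glucose phosphate, had 667, 738 and 678 CPM at 12 DAH, against 101, 154 and 175 CPM at 4 DAH (log2 change 2.19, SE 0.13, adjusted p = 5.4e-13). OS05G0589200, an RNA polymerase sigma factor region 2 gene of the kind that directs chloroplast transcription, had 6.68, 6.35 and 5.94 CPM in SL at 12 DAH, against 0.441, 0.384 and 0.194 CPM at 4 DAH (log2 change 2.46, SE 0.11, adjusted p = 6.34e-15). OS01G0225000, a mitochondrial carrier gene, had 9.86, 9.02 and 10.4 CPM at 12 DAH, against 0.993, 0.767 and 1.47 CPM at 4 DAH (log2 change 2.41, SE 0.26, adjusted p = 3.31e-08). XBOS36 (OS06G0128700) and BBD1 (OS01G0702000) rose by 2.31 and 2.34 on the log2 scale. Among the decreases, the pentatricopeptide repeat gene OS06G0184866 had 6.96, 5.55 and 6.17 CPM at 12 DAH, against 35.1, 43.1 and 41.5 CPM at 4 DAH (log2 change -2.51, SE 0.18, adjusted p = 4.3e-11). CML15 (OS05G0380900), a calmodulin-like gene, had 3.54, 3.04 and 17.4 CPM at 12 DAH, against 35.7, 35.8 and 37.3 CPM at 4 DAH, with replicate 3 at 12 DAH above its group (log2 change -2.41, SE 0.44, adjusted p = 8.83e-05), and without it the log2 change was -3.11. CAD8C (OS09G0400300) and CAD8B (OS09G0400000), of the cinnamyl alcohol dehydrogenase family, fell by 2.39 and 2.07 on the log2 scale. Both were in the phenylpropanoid and lignin list, in which 6 of 21 rose and 3 fell (3 to 5 rose with 1 library left out, fewest without replicate 1 of 12 DAH). CAD9 (OS03G0223200, log2 change 0.86, adjusted p = 0.00333) and CAD3 (OS10G0430200, log2 change 0.68, adjusted p = 0.0493), also named as cinnamyl alcohol dehydrogenases, rose. CHS1 (OS11G0530600), chalcone synthase, had 13.2, 7.47 and 4.03 CPM at 12 DAH, against 0.993, 1.151 and 1.05 CPM at 4 DAH (log2 change 2.06, SE 0.65, adjusted p = 0.0151), and without replicate 1 of 12 DAH its adjusted p was 0.0836.

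The other lists were expansins and cell wall (5 of 33 rose and 3 fell, and without replicate 2 of 12 DAH 2 rose and 1 fell), DNA methylation and small RNA (2 of 26 rose, 3 fell), vacuolar proteases and autophagy (4 of 11 rose, 1 fell, and 2 and 1 of the 9 outside the study's list), and lipid transfer, wax and cutin (1 of 8 rose). In the order given, 24.2%, 19.2%, 45.5% and 12.5% were called, against 32.7% of all genes. In the autophagy list, OS03G0248000 (autophagy protein 9 domain) had 97.8, 109.7 and 98.7 CPM at 12 DAH, against 53.3, 62.5 and 57.2 CPM at 4 DAH (log2 change 0.75, SE 0.14, adjusted p = 0.000117). Of 76 chloroplast-encoded genes none rose and 3 fell, and of 30 mitochondrion-encoded genes none passed, with medians of -0.45 and -0.37. Organelle transcripts mostly lack the poly(A) tails used for selection, and chloroplast genes took 0.37% of the values in replicate 2 of 4 DAH. The chloroplast gene psbA (LOC_Osp1g00110) had 264, 241 and 212 CPM at 12 DAH, against 255, 1713 and 583 CPM at 4 DAH (log2 change -1.48, SE 0.61, adjusted p = 0.0615), and without replicate 2 of 4 DAH none of the 76 genes fell. Without replicate 1 of 4 DAH, 9 fell.

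Setting the later days beside this change, the genes that rose in SL by 12 DAH stayed above their 4 DAH level, and the genes that fell stayed below it, as medians over each set. For the 3831 genes that rose, the median log2 difference from 4 DAH took the values 0.61 (12 DAH), 0.65 (20 DAH), 0.69 (28 DAH), 0.42 (36 DAH) and 0.52 (44 DAH). For the 3386 that fell it was -0.72, -0.76, -0.72, -0.49 and -0.53 over the same days. The 12 DAH values chose these genes and every difference shares the 4 DAH libraries, so this is a description with no test. Of the genes followed singly, SGR had its highest mean at 28 DAH. It averaged 17.88 ± 3.79 CPM (4 DAH), 51.1 ± 11.5 (12 DAH), 92.8 ± 21.4 (28 DAH) and 34.7 ± 4.85 (44 DAH) in SL (SD, n = 3 each). CAB1R averaged 874 ± 41.1 CPM (4 DAH), 136 ± 71.8 (12 DAH), 11.3 ± 4.80 (28 DAH), 413 ± 462 (36 DAH) and 7.31 ± 3.42 (44 DAH), with libraries that disagreed at 36 DAH. PORB averaged 93.5 ± 11.6 CPM (4 DAH), 18.7 ± 0.387 (12 DAH), 15.7 ± 2.11 (28 DAH) and 89.6 ± 43.5 (36 DAH). INO1 averaged 143 ± 38.2 CPM (4 DAH), 694.5 ± 38.3 (12 DAH), 1053 ± 164 (28 DAH) and 206 ± 28.5 (36 DAH). FL showed the same turns at 28 to 36 DAH in PORB (18.3 ± 1.26 and 97.7 ± 15.5 CPM) and INO1 (1266 ± 258 and 236 ± 13.6 CPM).

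**Figure D3:**
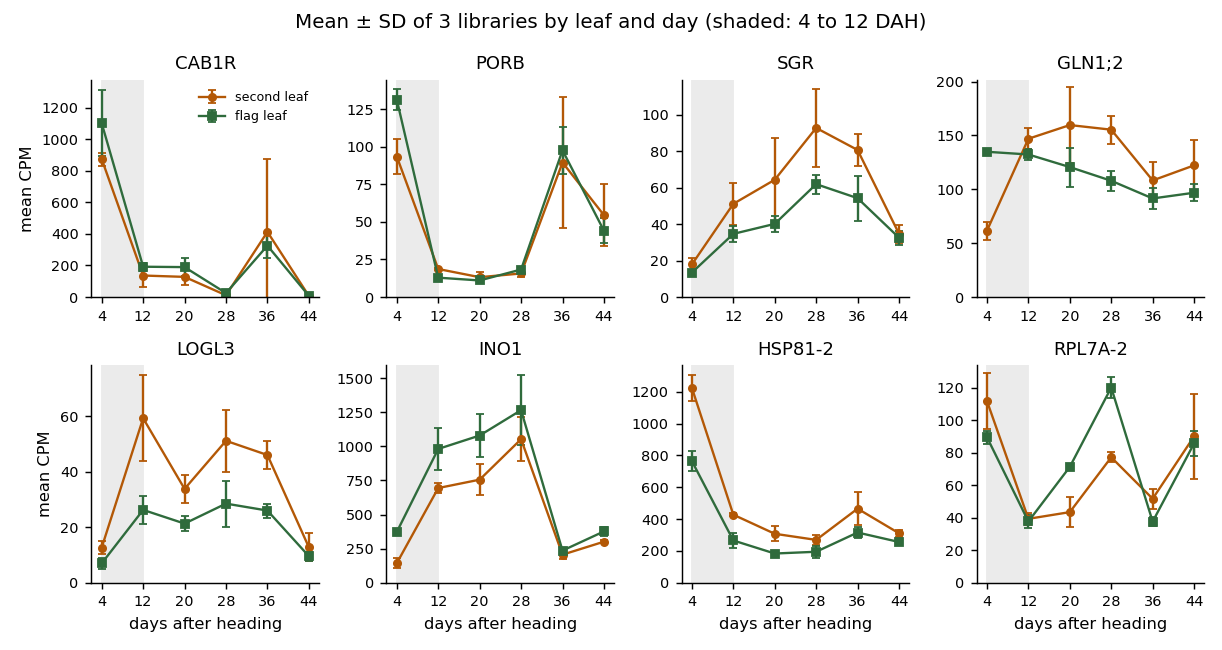
Mean CPM ± SD of 3 libraries on each of the 6 sampling days for 8 genes, in SL (circles) and FL (squares), with the interval from 4 to 12 DAH shaded. CAB1R, PORB, HSP81-2 and RPL7A-2 fall across the shaded interval in both leaves, SGR, LOGL3 and INO1 rise in both, and GLN1;2 rises in SL (147 CPM at 12 DAH, 61.6 CPM at 4 DAH) beside a level course in FL (132 CPM at 12 DAH, 135 CPM at 4 DAH).

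Most of the change was shared with FL over the same days. In FL, 6298 genes (28.6%) passed, 2947 rising and 3351 falling. Of the 7217 genes called in SL, 6668 (92.4%) had a log2 change of the same sign in FL, 4024 (55.8%) were also called there in the same direction, and 20 were called in the opposite direction. Of the FL calls, 2254 (35.8%) were not called in SL. SL and FL share no library, but they were cut on the same days. A call in only one of the leaves does not show that the leaves differed, so the difference between the changes was tested itself. In this test 184 genes (0.834%) passed, with the SL change above the FL change for 113 and below it for 71, and 3270 genes had an unadjusted p under 0.05. This count rested heavily on single libraries. It was 1354 without FL 12 DAH replicate 1, which stood apart from the other libraries of its group, 45 without replicate 2 and 21 without replicate 3 of the same group. It was 68, 47 and 278 without SL 12 DAH replicates 1, 2 and 3, and 112, 67 and 78 without FL 4 DAH replicates 1, 2 and 3. Without SL 4 DAH replicates 1, 2 and 3 it was 61, 155 and 69.

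Nitrogen assimilation supplied 3 of the 184. GLN1;2 in FL had 131, 128 and 138 CPM at 12 DAH, against 136, 135 and 133 CPM at 4 DAH, level where SL had risen (SL minus FL 1.195, SE 0.21, adjusted p = 0.00625). GDH1 in FL had 16.9, 11.7 and 11.8 CPM at 12 DAH, against 16.98, 13.6 and 14.7 CPM at 4 DAH (SL minus FL 1.27, SE 0.23, adjusted p = 0.00688), and NIA1 had 132, 127 and 133 CPM at 12 DAH, against 76.0, 79.7 and 66.4 CPM at 4 DAH (SL minus FL 1.16, SE 0.26, adjusted p = 0.0242). GLN1;2 and GDH1 passed whichever of the 12 libraries was left out. NIA1 passed in 4 of those 12 fits, with an adjusted p up to 0.0930. In each of these genes the SL mean at 4 DAH (61.6, 7.93 and 20.7 CPM) was below the FL mean (135, 15.1 and 74.1 CPM). TDC2 (OS07G0437500), a tryptophan decarboxylase, had 52.9, 47.9 and 41.4 CPM at 12 DAH, against 18.1, 22.8 and 19.997 CPM at 4 DAH in SL and 54.2, 42.2 and 35.7 CPM at 12 DAH, against 28.1, 34.6 and 33.7 CPM at 4 DAH in FL (SL minus FL 0.74, SE 0.15, adjusted p = 0.012).

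Genes with a smaller decrease in SL than in FL included GSA and ZEP (OS04G0448900), a zeaxanthin epoxidase. GSA had 72.9, 42.0 and 43.5 CPM at 12 DAH, against 238, 227 and 211 CPM at 4 DAH in FL (SL minus FL 0.96, SE 0.19, adjusted p = 0.0132). ZEP had 32.2, 36.6 and 40.7 CPM at 12 DAH, against 38.5, 54.4 and 55.2 CPM at 4 DAH in SL and 37.1, 31.5 and 30.4 CPM at 12 DAH, against 68.9, 93.3 and 98.9 CPM at 4 DAH in FL (SL minus FL 0.85, SE 0.19, adjusted p = 0.0235). In SL the ranges of ZEP overlapped. PNP1 (OS07G0168000), for polynucleotide phosphorylase, had 83.8, 79.5 and 64.0 CPM at 12 DAH, against 66.7, 67.2 and 67.2 CPM at 4 DAH in SL, where it did not pass, and 69.8, 53.0 and 49.9 CPM at 12 DAH, against 88.0, 114 and 103 CPM at 4 DAH in FL (SL minus FL 0.88, SE 0.18, adjusted p = 0.0132).

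Others fell more in SL or rose more in FL. ACS5 had 0, 0 and 0 CPM at 12 DAH, against 0.840, 0.238 and 0.107 CPM at 4 DAH in FL (SL minus FL -2.73, SE 0.22, adjusted p = 1.54e-08). The SL values at 4 DAH, given above, were higher than any of these. With no read in either leaf at 12 DAH, the difference on the log2(CPM + 1) scale reflects the 4 DAH levels alone. The fold change in FL could not be measured. ACS5 reached the filter only through the SL libraries of 4 DAH, which also set this difference. Its adjusted p here, and its calls with a library left out, are therefore no independent support. Without any 1 of the SL 4 DAH libraries ACS5 missed the filter on low values and could not be fitted, and it passed in the other 9 fits with 1 library left out. It missed with edgeR on recovered reads (adjusted p = 0.9999). PHT1;8 had 93.3, 111 and 105 CPM at 12 DAH, against 104, 119 and 127 CPM at 4 DAH in FL (SL minus FL -1.03, SE 0.23, adjusted p = 0.0242). PP2C32 (OS03G0292100) had 73.6, 73.7 and 129 CPM at 12 DAH, against 178, 202 and 220.1 CPM at 4 DAH in SL and 84.2, 107 and 95.9 CPM at 12 DAH, against 83.3, 124 and 124 CPM at 4 DAH in FL (SL minus FL -1.12, SE 0.24, adjusted p = 0.0223). The FL ranges overlapped in both genes, while the SL ranges did not. OS09G0354300, similar to leucoanthocyanidin dioxygenase, had 1.87, 1.81 and 1.72 CPM at 12 DAH, against 7.28, 6.81 and 9.46 CPM at 4 DAH in SL and 2.96, 3.92 and 3.67 CPM at 12 DAH, against 4.50, 5.004 and 4.79 CPM at 4 DAH in FL (SL minus FL -1.22, SE 0.25, adjusted p = 0.0155). HKT1;3 (OS02G0175000), a further sodium transporter gene, had 26.6, 22.304 and 19.3 CPM at 12 DAH, against 29.01, 22.7 and 27.7 CPM at 4 DAH in SL, where the values overlapped, and 20.3, 23.6 and 23.9 CPM at 12 DAH, against 8.46, 10.5 and 12.2 CPM at 4 DAH in FL (SL minus FL -1.33, SE 0.26, adjusted p = 0.012). 4CL2 (OS02G0697400), which makes activated cinnamic acids, had 2.00, 0.640 and 0.788 CPM at 12 DAH, against 0, 0.384 and 0.155 CPM at 4 DAH in SL and 18.2, 7.13 and 20.8 CPM at 12 DAH, against 0.420, 0.556 and 1.14 CPM at 4 DAH in FL (SL minus FL -2.27, SE 0.45, adjusted p = 0.0132).

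With 1 library left out, HKT1;3 passed in 11 of 12 fits, TDC2 and 4CL2 in 10, OS09G0354300 in 9, GSA in 8, PNP1 in 7, ZEP and PP2C32 in 6 and PHT1;8 in 4. Each of these 9 genes, and NIA1, lost the call without FL 12 DAH replicate 3, and their highest adjusted p over the 12 fits lay between 0.0516 and 0.0967. With the libraries of the comparison only, NIA1, GSA, TDC2, ZEP and PP2C32 missed the threshold (adjusted p between 0.0516 and 0.0715). PP2C32 also missed with edgeR (adjusted p = 0.0648). 4CL2 missed with a pseudocount of 0.1, with edgeR and with DESeq2 (adjusted p = 0.426, 0.455 and 0.334).

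**Figure D4:**
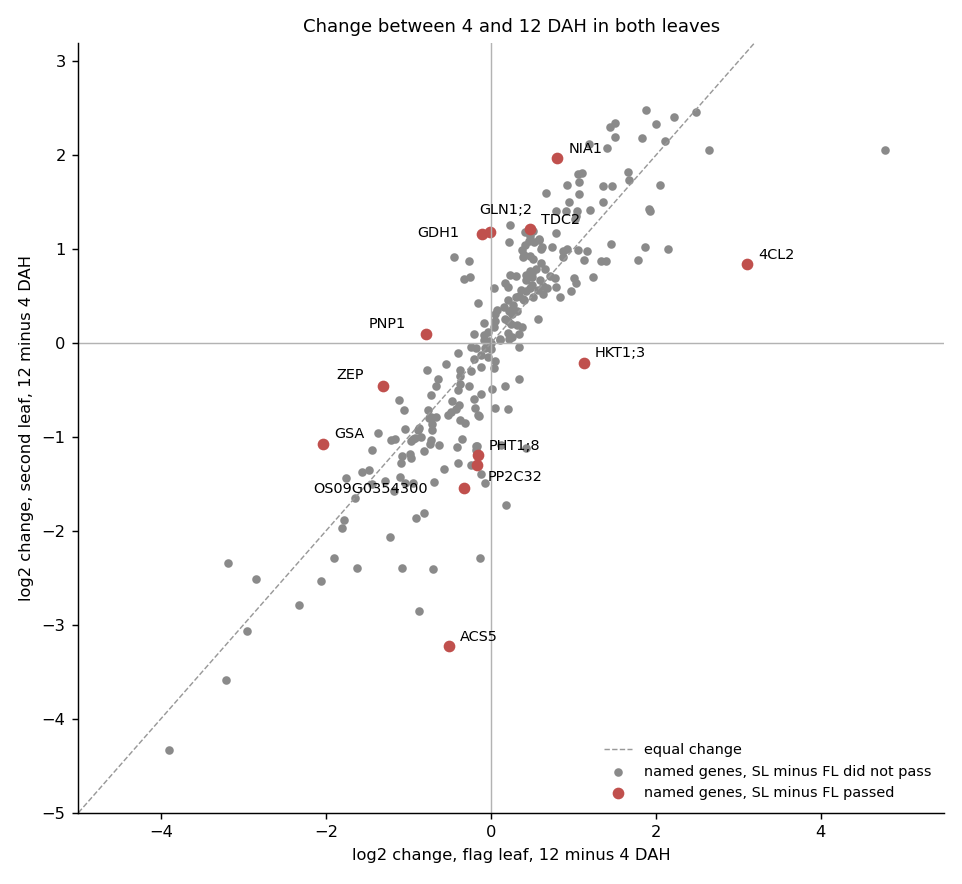
Log2 change between 4 and 12 DAH in SL (vertical) against FL (horizontal) for the 259 genes named by rule, with a dashed line of equal change. Most points lie near the line, and the red, labelled points are the genes whose SL minus FL difference passed, such as GLN1;2 (1.18 in SL, -0.01 in FL) and ACS5 (-3.23 in SL, -0.50 in FL). ACS5 had no read at 12 DAH in either leaf, so its position reflects the 4 DAH levels alone. It reached the filter only through SL at 4 DAH, so its call is no independent support.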

How the data were processed

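Leaf libraries of rice (poly(A) RNA, TruSeq Stranded kit, Illumina paired-end reads) were taken from 2 leaves at 6 time points, 3 libraries each, and the 6 SL libraries of 12 and 4 DAH are compared here. Per the labels and the submitters' processing notes, the authors used CASAVA 1.8.2, cutadapt 1.2.1, TopHat2 2.0.10 with Bowtie, HTSeq 0.6.1 and edgeR on build IRGSP-1.0. The deposited values are a normalized expression signal, linear CPM on TMM-scaled library sizes, made by the authors from read counts per gene. In all 36 libraries every value was a whole multiple of 1 step within 0.01 step (100% whole), and reads and depths were recovered for 35 of them (8817254 to 25097907 reads in the 6 SL libraries, where 3 reads equal 0.116 to 0.331 CPM). The values of FL 28 DAH replicate 1 were not turned into reads, since its step (0.101 CPM) lay near a round decimal, and it entered no count test.

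Values were taken as log2(CPM + 1) and quantile normalized over all libraries, the study's own scale. A gene was tested where its log2 value reached 1 in 3 or more libraries, by fitting limma 3.58.1 (R 4.3.3, trend) to 12 groups, with Benjamini-Hochberg adjustment over all tested genes at 0.05. SE is that of the log2 change. The scripts were tested on simulated data. Alternatives were no quantile normalization, other pseudocounts and filters, fewer libraries, a replicate block, edgeR 4.0.16 (quasi-likelihood) and DESeq2 1.42.0 on recovered reads, each library left out, and reads thinned to one depth, which was chosen after seeing the data.

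The members and the 34 gene lists were chosen with earlier results of these data known. Named genes were the 12 with the largest called change in each direction whose groups did not overlap, the called members of each list (or the 4 largest in each direction) with its 2 most expressed members, list genes named by the study, and in each direction 5 genes with the lowest adjusted p for the difference between leaves. The rule gave 259 genes, and those not printed are held only in the counts. Of 1057 list genes, 251 missed the filter. Names came from the study's tables and from the RefSeq gene table (23729 of 38026 identifiers matched), whose assembly differs from that of the files, so no coordinates are given. Replicates share only a number, are pools from the same field, and differed by more than sampling noise, so p-values measure the spread between pools.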

Additional observations from a re-analysis of the deposited data

Results flagged for a closer look

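For 184 genes the change between 4 and 12 DAH differed between SL and FL by limma's test of the difference. Of the genes named above, 13 were among them, and each value is the SL change minus the FL change on the log2 scale. The difference was positive for GLN1;2 (1.195), GDH1 (1.27), NIA1 (1.16), GSA (0.96), PNP1 (0.88), ZEP (0.85) and TDC2 (0.74). It was negative for ACS5 (-2.73), 4CL2 (-2.27), HKT1;3 (-1.33), OS09G0354300 (-1.22), PP2C32 (-1.12) and PHT1;8 (-1.03). For ACS5, with no read at 12 DAH in either leaf, the difference reflects the 4 DAH levels alone. That gene reached the filter only through the SL libraries of 4 DAH, so its call is no independent support. The depth of FL 12 DAH replicate 1, which stood apart from its group, was 20897307 reads, and its part in these differences was tested only by leaving it out. Groups of 3 libraries are too small for a test of single outlying libraries.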

How the results depend on the processing

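The count of 7217 changed genes in SL stayed within 1.5 times under every alternative, from 5909 with SL libraries only to 10208 with the libraries of the comparison only, and from 5501 to 6264 with 1 of the 6 libraries left out. It was 7365 with edgeR and 7742 with DESeq2 on recovered reads. The count of 184 genes that differed between the leaves was less stable. It was 328 with a pseudocount of 5 and 503 with DESeq2, but 155 with edgeR, and it ranged from 21 to 1354 with 1 library left out. The cause of these moves was not tested. Over 131 of the genes named in the text, with 2496 values under alternatives, 90 values lost the call, in 18 results, 12 gained it and 1 changed sign. The sign changed only in OS09G0296800, which had not passed and ranged from -0.00088 to 0.1065 with 1 library left out (lowest without SL 12 DAH replicate 3). The replicate number did not pair the samples, since the deviations of same-numbered SL libraries correlated at -0.11, 0.17 and 0.02. With the replicate block 6926 and 167 genes passed. At 8817254 and 10349066 reads, SL 4 DAH replicates 1 and 2 limit the precision for weakly expressed genes, and with reads thinned to 8817254 per library, 6583 and 144 genes passed.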
